A study of Arabidopsis thaliana with 8 samples.

Results

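The genes described here are 10 genes of flavonoid and anthocyanin synthesis in *Arabidopsis thaliana*, listed by gene identifier for their known roles, with earlier results of these libraries known. They are 10 of the 37336 identifiers in the count tables, and each of the 10 had at least 1 count. Early steps are represented by *CHS*, *CHI*, *F3H*, *F3'H* and *FLS1*, late steps by *DFR*, *LDOX* and *UF3GT*, and regulators by *PAP1* and *TT8*. The study examined the ubiquitin protease UBP5 and compared the transcripts of *ubp5* mutant seedlings with those of the wild type. The mutant seedlings, *ubp5*, were of a homozygous deletion line made with CRISPR/Cas9 and a pair of guides in the Col-0 background, in which parts of the DUSP and UBP domains are missing. The wild type was the accession Col-0. Whole seedlings of both genotypes were harvested 12 days after germination, with 4 biological replicates each. The mutant is 1 line, so effects of the deletion cannot be told apart from anything else particular to that line.

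Flavonoids are made from phenylalanine by way of coumaroyl-CoA. Chalcone synthase (CHS) builds the first flavonoid skeleton, chalcone isomerase (CHI) closes its ring, and the hydroxylases F3H and F3'H turn it into dihydroflavonols. At this branch point flavonol synthase (FLS1) leads to the colourless flavonols, while dihydroflavonol reductase (DFR) and leucoanthocyanidin dioxygenase (LDOX) lead to the red and purple anthocyanidins, which glycosyltransferases such as UF3GT then decorate. In Arabidopsis the early genes are known as targets of flavonol-specific R2R3-MYB factors, and the late genes as targets of complexes of a MYB such as PAP1, a bHLH such as TT8 and the WD40 protein TTG1.

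The promoters of 4 genes are shown because these genes stand on both sides of the branch point and carry most of the values below. Each is the 250 bases before the RefSeq gene start in TAIR10.1, written in the direction of transcription. The *CHS* window is chr5:4488226-4488475 on the plus strand, and the *FLS1* window is chr5:2803583-2803832 on the plus strand. The *DFR* window is chr5:17166033-17166282 on the minus strand, and the *LDOX* window is chr4:12006210-12006459 on the minus strand. Capitals mark the letters ACGT, the core of light-responsive elements bound by bZIP factors such as HY5.
CHS: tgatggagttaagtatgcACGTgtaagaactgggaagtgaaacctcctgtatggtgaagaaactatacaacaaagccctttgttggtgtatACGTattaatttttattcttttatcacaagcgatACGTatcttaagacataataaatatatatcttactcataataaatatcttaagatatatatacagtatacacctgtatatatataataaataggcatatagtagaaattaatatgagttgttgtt
FLS1: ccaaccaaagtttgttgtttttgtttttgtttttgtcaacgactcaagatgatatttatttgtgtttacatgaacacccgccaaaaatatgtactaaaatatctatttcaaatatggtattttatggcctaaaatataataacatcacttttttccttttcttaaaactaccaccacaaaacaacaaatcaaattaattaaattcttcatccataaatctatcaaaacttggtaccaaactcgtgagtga
DFR: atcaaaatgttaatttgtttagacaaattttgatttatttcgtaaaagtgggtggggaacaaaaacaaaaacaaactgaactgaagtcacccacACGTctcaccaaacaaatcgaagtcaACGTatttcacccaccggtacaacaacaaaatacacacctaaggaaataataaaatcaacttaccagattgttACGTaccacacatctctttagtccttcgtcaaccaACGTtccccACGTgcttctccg
LDOX: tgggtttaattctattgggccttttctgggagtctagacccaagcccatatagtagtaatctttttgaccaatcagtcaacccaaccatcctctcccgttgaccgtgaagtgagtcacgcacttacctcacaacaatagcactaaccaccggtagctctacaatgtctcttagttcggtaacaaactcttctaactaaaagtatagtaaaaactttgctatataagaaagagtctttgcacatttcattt
The *CHS* window held 3 ACGT matches, the *DFR* window held 5, and the *FLS1* and *LDOX* windows held 0 each. Over the 10 genes, 5 windows held ACGT, which reads the same on both strands, against 44.1% of the windows of 27443 genes. The G-box CACGTG, which contains ACGT, was in 4 of the 10 windows and in 6.49% of all windows. The wider E-box CANNTG, the recognition letters of bHLH factors, was in 7 of the 10 and in 55.3% of all. Searched on both strands, the MYB elements ACCTACC and ACCAACC were in 0 and 1 of the 10 windows, the match being in *TT8*, and in 1.16% and 2.69% of all. These matches are letters in a window and not shown to be bound.

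RNA was sequenced at transcript 3' ends, and each value is a number of distinct molecular tags per gene, so levels do not grow with transcript length. The libraries held from 1440510 to 2595285 counts in *ubp5* (median 2100966) and from 2572842 to 2997743 counts in Col-0 (median 2687134). *UBP5* had 14, 13, 6 and 16 counts in the *ubp5* libraries, against 47, 57, 32 and 51 counts in Col-0, which in edgeR's quasi-likelihood test gave a log2 fold change (FC) of -1.53 with a standard error (SE) of 0.25 and a Benjamini-Hochberg adjusted p of 0.00236. The counted 3' end was not compared with the ends of the deletion, so this lower level does not by itself check the genotype. Over all 15649 genes that passed edgeR's expression filter, 299 (1.91%) were called higher in *ubp5* and 459 (2.93%) lower. A call needed an adjusted p under 0.05 and a change of 2-fold or more, which is 1 on the log2 scale. The median log2 FC of those genes was -0.01. Marker genes of organs were read in the same libraries. The summed level of 5 shoot genes was 25700 to 28200 CPM in *ubp5*, against 30700 to 40100 CPM in Col-0. CPM are counts relative to library size, scaled by edgeR's TMM factors. Of the 5 shoot genes, 3 were lower in *ubp5* with an edgeR adjusted p under 0.05, against 6.34% of all genes that passed the filter. None of the 5 reached the fold threshold. *GLK1*, a transcription factor gene of chloroplast development on the same list, lay the other way (log2 FC 0.44, SE 0.17, edgeR adjusted p = 0.123). The summed level of 8 root genes was 48.5 to 66.3 CPM in *ubp5* and 50.0 to 71.6 CPM in Col-0. No marker was at 0 in all libraries of a genotype. The root sum says little about its rarer members, since *CASP1* and *SCR* had the highest levels. By edgeR without the expression filter, 3 of the 8 root genes lay below 0 and 5 above, none with an adjusted p under 0.05. The lowest was *PLT1* (log2 FC -2.63, edgeR adjusted p = 0.14), with 1 count in *ubp5* and 11 in Col-0. *CASP1* was also lower (log2 FC -0.42, edgeR adjusted p = 0.225). In whole seedlings, fewer cells of a type and less RNA per cell cannot be told apart.

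Of the 10 genes, 2 passed the expression filter, *CHS* and *CHI*, and neither was called. These counts of 0 higher and 0 lower stand beside the shares of 1.91% and 2.93% over all genes. One of them, *CHS*, had an unadjusted p under 0.05, as had 25.7% of all genes that passed the filter, and DESeq2 also called 0 of the 10. The other 8 genes had too few counts for the filter, and their fold changes come from a fit of all 24406 genes with a count. In that fit 445 genes (1.82%) passed as higher and 665 (2.72%) as lower, and the 10 genes gave 0 higher calls, 1 lower call (*FLS1*) and 3 unadjusted p under 0.05, the last beside 21.6% of all genes in that fit. Among the genes with at most 100 counts in all, the shares were 1.92% higher and 2.62% lower. All *ubp5* libraries exceeded all Col-0 libraries in 1 of the 10 genes, against 6.3% of all genes, and the reverse held in 2, against 7.61% of all genes.

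**Figure D1:**
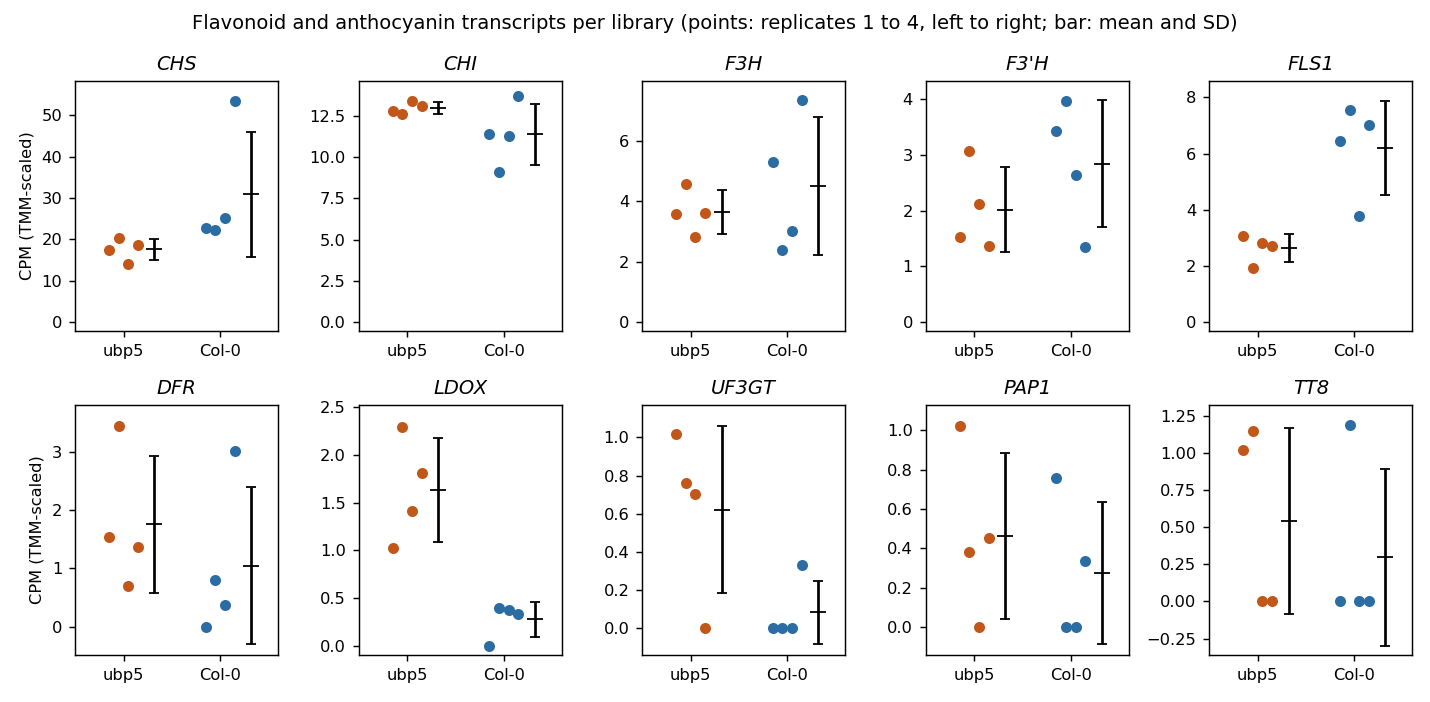
CPM (TMM-scaled, linear axis) of the 10 genes in each *ubp5* library (orange) and each Col-0 library (blue), with the mean and SD of the 4 libraries as a black bar that can reach below 0. *CHS* and *FLS1* lie lower and *LDOX* lies higher in every *ubp5* library, the single high *CHS* point of 53.5 CPM is Col-0 replicate 4, and the genes of the lower row stay under 4 CPM.

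Among the early genes, *CHS* was the most abundant of the 10. *CHS* (AT5G13930, TAIR10.1 chromosome 5, 4488476 to 4490264) had 17.3, 20.2, 14.1 and 18.6 CPM in *ubp5*, against 22.8, 22.2, 25.2 and 53.5 CPM in Col-0. All 4 *ubp5* libraries were lower than every Col-0 library, and Col-0 replicate 4 stood far above the other Col-0 libraries. The means were 17.6 ± 2.60 CPM in *ubp5* and 30.9 ± 15.1 CPM in Col-0 (SD, n = 4 each). The log2 FC was -0.81 (SE 0.28), which missed the threshold in edgeR's test (adjusted p = 0.0889). Without Col-0 replicate 4 it was -0.39 (adjusted p = 0.178), so that library carried a large part of the size of the difference. Without Col-0 replicate 1 it was -0.93, with an adjusted p of 0.0372 but still short of the fold threshold. *CHI* (AT3G55120) acts on the product of CHS. It had 12.8, 12.6, 13.4 and 13.1 CPM in *ubp5*, against 11.4, 9.13, 11.3 and 13.7 CPM in Col-0. The groups overlapped, and the log2 FC was 0.18 (SE 0.18, edgeR adjusted p = 0.617).

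The hydroxylase genes were counted much less often. *F3H* (AT3G51240) had 7, 12, 4 and 8 counts in *ubp5*, against 14, 6, 8 and 22 counts in Col-0. *F3'H* (AT5G07990), whose product sets the hydroxylation of the B ring, had 3, 8, 3 and 3 counts in *ubp5*, against 9, 10, 7 and 4 counts in Col-0. Both genes overlapped between the genotypes. Their log2 FCs in the fit without the filter were -0.29 (SE 0.39, adjusted p = 0.697) for *F3H* and -0.44 (SE 0.48, adjusted p = 0.612) for *F3'H*, by edgeR. Without Col-0 replicate 4, which also had the highest *F3H* level, the value for *F3H* turned to 0.06 (adjusted p = 0.967).

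*FLS1* (AT5G08640, chromosome 5, 2803833 to 2805606), the branch to flavonols, gave the lowest fold change of the 10. It had 6, 5, 4 and 6 counts in *ubp5*, against 17, 19, 10 and 21 counts in Col-0. In CPM this was 3.06, 1.91, 2.82 and 2.72 in *ubp5*, against 6.45, 7.54, 3.76 and 7.02 in Col-0, and the lowest Col-0 library, replicate 3, was above the highest *ubp5* library. The mean was 2.63 ± 0.499 CPM in *ubp5* and 6.19 ± 1.68 CPM in Col-0 (SD, n = 4 each). The pooled 21 *ubp5* and 67 Col-0 counts gave a ratio of scaled levels of 0.413 (95% exact interval 0.240 to 0.682, counting error only). In the fit without the filter the log2 FC was -1.26 (SE 0.36, edgeR adjusted p = 0.0347). The call did not hold widely. It was lost in DESeq2 (adjusted p = 0.107) and when any of 6 libraries was left out, namely *ubp5* replicate 1, 2, 3 or 4 (adjusted p = 0.0642, 0.126, 0.0694 and 0.0791) or Col-0 replicate 2 or 4 (0.0908 and 0.0825). The fold change itself stayed between -1.41 and -1.09.

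The fold changes of the late genes were above 0. *DFR* (AT5G42800, chromosome 5, 17164093 to 17166032), which draws on the same dihydroflavonols as FLS1, had 3, 9, 1 and 3 counts in *ubp5*, against 0, 2, 1 and 9 counts in Col-0. The libraries were scattered in both genotypes and overlapped, with *ubp5* replicate 2 and Col-0 replicate 4 highest. The ratio of scaled levels was 1.76 (95% exact interval 0.779 to 4.06), and the log2 FC was 0.76 (SE 0.74, edgeR adjusted p = 0.59). It was 2.15 without Col-0 replicate 4 (adjusted p = 0.157) and 0.18 without *ubp5* replicate 2 (adjusted p = 0.93).

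*LDOX* (AT4G22880, chromosome 4, 12004726 to 12006209), the next enzyme, had 2, 6, 2 and 4 counts in *ubp5*, against 0, 1, 1 and 1 counts in Col-0. Every *ubp5* library was above every Col-0 library, at 1.02, 2.29, 1.41 and 1.81 CPM in *ubp5*, against 0, 0.397, 0.376 and 0.334 CPM in Col-0. Only *ubp5* replicates 2 and 4 had more than 3 counts, the floor of detection used here, and the nearest libraries differed as 2 counts from 1. The pooled 14 *ubp5* and 3 Col-0 counts gave a 6.14-fold ratio of scaled levels with a wide counting interval (1.71 to 33.3). The log2 FC of 2.39 (SE 0.75) narrowly missed the threshold in edgeR's fit without the filter (unadjusted p = 0.00483, adjusted p = 0.0554). The adjusted p was 0.168 in DESeq2 and ran up to 0.179 with 1 library left out (*ubp5* replicate 2). *UF3GT* (AT5G54060), which adds xylose to the anthocyanin glucoside, had 2, 2, 1 and 0 counts in *ubp5*, against 0, 0, 0 and 1 counts in Col-0. Its ratio of 6.58 had an interval from 0.736 to 311, and the log2 FC was 2.19 (SE 1.17, edgeR adjusted p = 0.297). Without Col-0 replicate 4, the only Col-0 library with a count, the fitted value was 3.60 (adjusted p = 0.21) and is no bound. A difference in *UF3GT* was thus not detectable at this depth.

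The regulators were close to the limit of detection. *PAP1* (AT1G56650), the MYB activator of anthocyanin genes, had 2, 1, 0 and 1 counts in *ubp5*, against 2, 0, 0 and 1 counts in Col-0. *TT8* (AT4G09820), its bHLH partner, had 2, 3, 0 and 0 counts in *ubp5*, against 0, 3, 0 and 0 counts in Col-0. Both overlapped, with log2 FCs of 0.70 (SE 1.07, edgeR adjusted p = 0.733) for *PAP1* and 0.97 (SE 1.17, adjusted p = 0.661) for *TT8*. Leaving out 1 library moved *PAP1* between 0.17 (without *ubp5* replicate 1) and 1.62 (without Col-0 replicate 1). It moved *TT8* between 0.31 (without *ubp5* replicate 2) and 3.63 (without Col-0 replicate 2, which held all Col-0 counts). With so few counts these values say little in either direction.

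**Figure D2:**
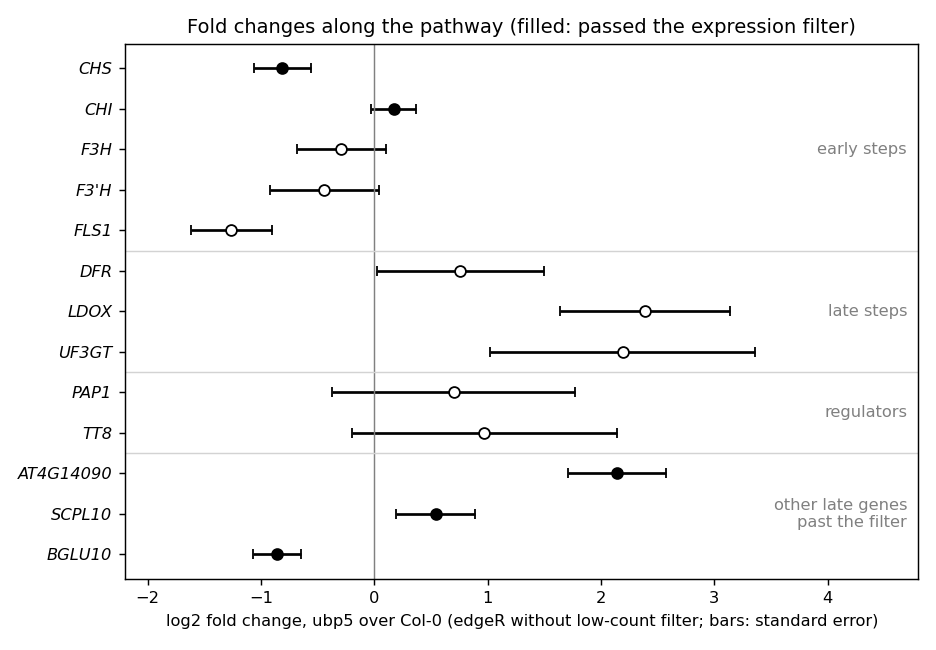
Log2 FC of *ubp5* over Col-0 (points) and its SE (bars) for the 10 genes and the 3 other late genes that passed the filter, from edgeR without the low-count filter, with filled points for genes that also passed the filter. Of the 5 early genes, 4 lie below 0, and the 3 late genes among the 10 lie above 0 with wide errors. Of the other late genes, AT4G14090 lies at 2.14, *SCPL10* at 0.54 and *BGLU10* at -0.86.

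Set side by side, the early genes had 1 positive and 4 negative fold changes with a median of -0.44, and the late genes had 3 positive ones with a median of 2.19. The median of all genes in that fit was -0.03. To compare early with late within a library, where the scaling between libraries drops out, the counts of *DFR*, *LDOX* and *UF3GT* were summed and given as a share of these and the 5 early genes together. The late genes gave 7 of 82 counts (8.54%), 17 of 128 (13.3%), 4 of 54 (7.41%) and 7 of 94 (7.45%) in *ubp5*. They gave 0 of 130, 3 of 117 (2.56%), 2 of 124 (1.61%) and 11 of 259 (4.25%) in Col-0, where the count of 0 in replicate 1 allows a share of up to 2.31%, taking 3 counts of the total as the limit (2.8% by the exact 95% binomial interval). The 4 *ubp5* shares were all above the 4 Col-0 shares, and the nearest libraries were *ubp5* replicate 3 and Col-0 replicate 4. The exact 95% intervals of these nearest libraries, 2.06 to 17.9% and 2.14 to 7.47%, overlapped widely. That of *ubp5* replicate 2, 7.93 to 20.4%, lay above all Col-0 intervals. Pooled, the share was 35 of 358 counts in *ubp5* (9.78%, 95% exact interval 6.9 to 13.3) and 16 of 630 in Col-0 (2.54%, interval 1.46 to 4.09), and the means over libraries were 9.18% ± 2.8 in *ubp5* and 2.1% ± 1.78 in Col-0 (SD, n = 4 each). These intervals cover counting error only. As a score over genes chosen with results known, the share is a description and was given no test.

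**Figure D3:**
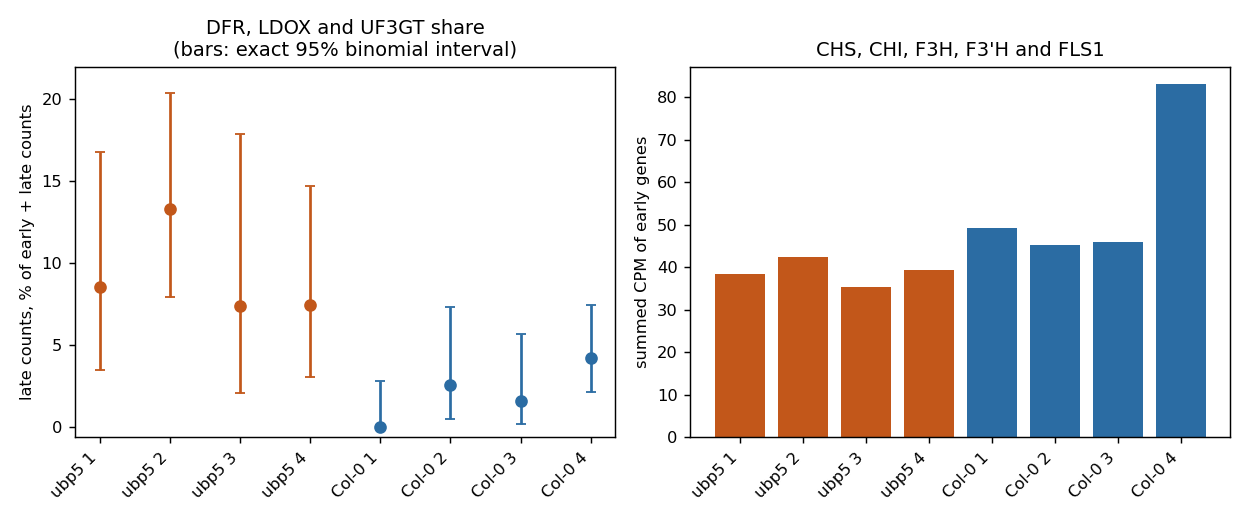
Left, counts of *DFR*, *LDOX* and *UF3GT* as a percent of the counts of these and the 5 early genes in each library, with exact 95% binomial intervals. Right, the summed CPM of the 5 early genes in the same libraries. The *ubp5* shares run from 7.41 to 13.3% and the Col-0 shares from 0 to 4.25%, and the early sum is highest in Col-0 replicate 4 at 83.0 CPM.

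The sums behind the share were compared as well. The 5 early genes summed to 38.3, 42.4, 35.2 and 39.4 CPM in *ubp5*, against 49.3, 45.2, 45.9 and 83.0 CPM in Col-0. These sums did not overlap, but *CHS* gave 40.0 to 47.7% of the early counts in *ubp5* and 46.2 to 64.5% in Col-0. Of the other early genes, only *FLS1* was separated between the genotypes, while *CHI*, *F3H* and *F3'H* overlapped. The 3 late genes summed to 3.57, 6.49, 2.82 and 3.17 CPM in *ubp5*, against 0, 1.19, 0.752 and 3.68 CPM in Col-0, and these overlapped, since Col-0 replicate 4 was high in late as well as early genes. On the log2 scale, with 0.5 added to each sum, the late over early ratio was 2.52 higher in *ubp5*. It was 1.77 higher without Col-0 replicate 1 and 2.25 higher with *CHS* left out of the early sum. With equal weight for each gene it was 1.47 higher, but that value used the mean log2 of CPM plus 0.5 in place of summed counts. For the enzymes that share a substrate, log2 of *DFR* over *FLS1* was -0.89, 0.79, -1.58 and -0.89 in *ubp5*, against -5.13, -2.96, -2.81 and -1.18 in Col-0. The mean difference was 2.37, but the groups overlapped at *ubp5* replicate 3 and Col-0 replicate 4. The lowest value, in Col-0 replicate 1, came from 0 *DFR* counts and the added 0.5. The difference was 1.67 without that library, 2.99 without Col-0 replicate 4, and 2.08 with 1 added in place of 0.5. Seed storage transcripts (*CRA1*, *CRU3* and *SESA3*) were read beside this as seed markers. They are not markers of the seed coat, which is a site of this pathway. They summed to 127, 27.5, 66.2 and 14.9 CPM in *ubp5*, against 15.6, 40.9, 33.1 and 15.1 CPM in Col-0. *SESA3* was at 0 in 2 of the *ubp5* and 3 of the Col-0 libraries. The library with the highest late share, *ubp5* replicate 2, had 27.5 CPM of these transcripts, within the Col-0 range, and *ubp5* replicate 1 had the most. The part of seed or shoot tissue in the early and late values was not tested.

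The wider pathway was read from 49 other genes, of which 43 had a count and 26 passed the filter. In the fit of all genes with a count, 1 of the 43 was called higher, beside 1.82% of all genes, and 0 lower, and their median log2 FC was -0.19. The called gene was AT4G14090 (chromosome 4, 8122188 to 8123835), annotated as an anthocyanidin 5-O-glucosyltransferase and thus a late gene. It had 10, 11, 8 and 9 counts in *ubp5*, against 2, 3, 3 and 3 counts in Col-0. All *ubp5* libraries were well above all Col-0 libraries, and within each genotype they lay close together, at 4.75 ± 0.745 CPM in *ubp5* and 1.02 ± 0.191 CPM in Col-0 (SD, n = 4 each). It passed the filter through its *ubp5* libraries, since each Col-0 library had at most 3 counts, which was taken as the floor of detection. The log2 FC was 2.14 in the fit without the filter (SE 0.43, edgeR adjusted p = 0.00339) and also with it (SE 0.35, adjusted p = 0.00208), and DESeq2 also called the gene (adjusted p = 0.00939). With any library left out the gene remained called in the fit with the filter. Groups wholly higher in *ubp5* were found for 6.3% of all genes with a count.

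No other gene of the late group was called. *BGLU10*, known as an anthocyanin glucosyltransferase, had 34.7, 46.2, 40.1 and 44.8 CPM in *ubp5*, against 110, 40.1, 71.5 and 79.3 CPM in Col-0. Its log2 FC of -0.85 (SE 0.24, edgeR adjusted p = 0.0398) passed the test on p but not on size, and the groups overlapped. With 1 library left out its adjusted p ran from 0.00259 (without Col-0 replicate 2) to 0.11 (without *ubp5* replicate 1). A lower level with such a p, whatever its size, was found for 6.34% of all tested genes. *SCPL10*, which adds sinapoyl groups, had a log2 FC of 0.55 (SE 0.34, edgeR adjusted p = 0.336). *TT19*, a glutathione transferase needed to carry anthocyanins to the vacuole, had 6 counts in *ubp5* and 4 in Col-0 in all. The malonyltransferase gene *5MAT* had 2 counts in *ubp5* and 0 in Col-0.

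Upstream of the members, 7 of 8 phenylpropanoid entry genes were tested and 0 were called, with log2 FCs between -0.63 and 0.19 and 1 unadjusted p under 0.05, against 25.7% of all tested genes. Col-0 replicate 1 stood far above the other Col-0 libraries in *PAL1* (176 against 35.7 to 63.2 CPM), *C4H* (290 against 120 to 146 CPM) and *4CL1* (106 against 41.4 to 51.2 CPM). In *PAL3* it was the lowest Col-0 library (8.73 CPM). All 8 other early and flavonol genes, which include the flavonol glycosyltransferases, were tested. None of these was called and 0 reached an unadjusted p under 0.05, with log2 FCs between -0.61 and 0.47. Genes of proanthocyanidin synthesis, a seed coat branch that begins with *BAN*, all fell under the filter, and 5 of 7 had any count. DESeq2 called 0 genes in these 3 groups.

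Of 11 activators, 2 passed the filter. *TTG1*, the WD40 partner of PAP1 and TT8, had 30.6, 29.4, 30.3 and 27.2 CPM in *ubp5*, against 31.1, 38.5, 36.9 and 34.5 CPM in Col-0. All *ubp5* libraries were lower, which held for 9.37% of all tested genes, and the difference did not pass the test (log2 FC -0.26, SE 0.12, edgeR adjusted p = 0.2). *HY5*, the bZIP factor of light signalling, had a log2 FC of -0.20 (SE 0.34, edgeR adjusted p = 0.771). *MYB113* and *MYB114*, near relatives of *PAP1*, and the flavonol activator *MYB11* had 0 counts in all 8 libraries. The flavonol activators *MYB12* and *MYB111* were detected, with 14 and 2 counts in *ubp5*, against 22 and 7 in Col-0. In the fit without the filter all 8 activators with a count lay below 0 (median log2 FC -0.36), as did 12769 of 24406 genes. None of the 8 had an unadjusted p under 0.05 in edgeR's test, against 21.6% of all genes in that fit. Of 8 repressors, 6 were tested, 0 were called by edgeR or DESeq2, and 3 had an unadjusted p under 0.05 (25.7% of all tested genes had one), with a median log2 FC of -0.41. These were the nitrogen-responsive LOB-domain genes *LBD37* (-0.37, SE 0.12, adjusted p = 0.0765) and *LBD39* (-0.44, SE 0.15, adjusted p = 0.0735), and *MYB4* (-0.66, SE 0.28, adjusted p = 0.152). *MYBL2*, an R3-MYB that opposes the PAP1 and TT8 complex, had 59.7, 74.1, 57.8 and 65.2 CPM in *ubp5*, against 79.3, 137, 116 and 46.5 CPM in Col-0. It overlapped because Col-0 replicate 4, the library highest in *CHS*, was the lowest of all 8 in *MYBL2* (log2 FC -0.55, SE 0.26, edgeR adjusted p = 0.203).

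**Figure D4:**
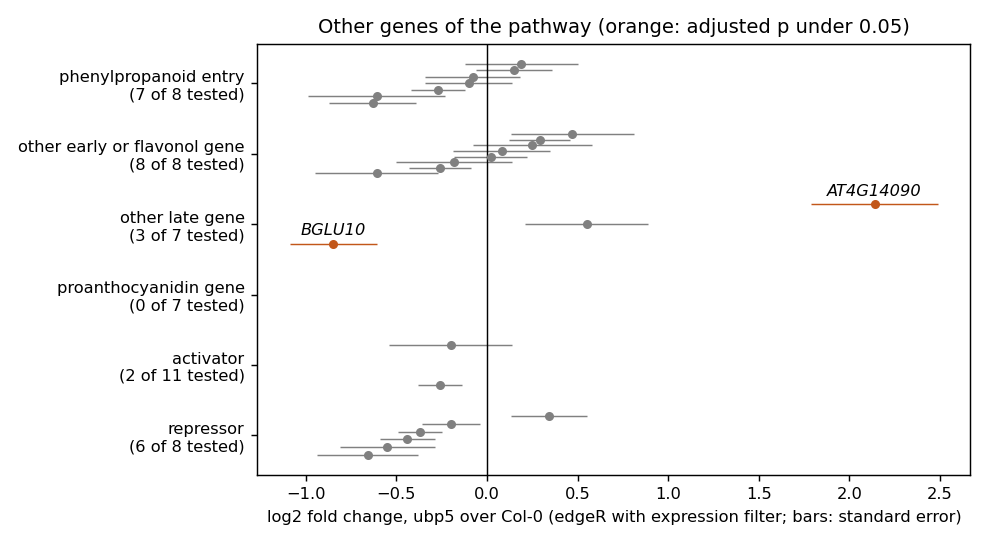
Log2 FC of *ubp5* over Col-0 (points, with standard errors) for the 26 tested pathway genes beyond the 10, by role, from edgeR with the expression filter. AT4G14090 at 2.14 and *BGLU10* at -0.85, in orange, have an adjusted p under 0.05, and the other 24 lie between -0.66 and 0.55.

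Among replicates of a genotype the early genes followed each other in part. After each genotype's mean was removed, *CHS*, *CHI* and *F3H* were correlated over the 8 libraries (Pearson r from 0.73 to 0.78), *FLS1* was near 0 against all 4 others in size (-0.20 to 0.10), and *F3'H* ran the other way (-0.76 to -0.20). These are descriptions over 8 libraries. Col-0 replicate 4 had the highest Col-0 levels of *CHS*, *CHI* and *F3H* (53.5, 13.7 and 7.36 CPM). Its weight in these correlations was not computed. *F3H*, *F3'H* and *FLS1* had at most 22, 10 and 21 counts in a library, so counting error also enters their values. By the same measure the genes most like the mean of *CHS* and *CHI*, among 11791 genes with at least 10 CPM, were *CYP97A3* and *RFC3* (both r = 0.97), AT4G01590 and *NAP57* (both 0.95), and *FAD7*, *OMR1*, *UBP16*, AT3G15110, AT2G37160 and AT3G02760 (0.93 each). None of the other pathway genes was among them, and *MYBL2* had an r of -0.88, the lowest among the pathway genes ranked. The 10 named genes were picked as the highest of 11791 over 8 libraries. Such high values can arise by chance, and no test was made. No late gene passed the filter, so no such list was made for the late steps.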

How the data were processed

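RNA of 12-day-old seedlings was counted in 4 *ubp5* and 4 Col-0 libraries, grouped and numbered by the sample labels. The authors primed poly(A) RNA with barcoded oligo(dT) carrying a molecular identifier, separated and trimmed reads with BRBseqTools, kept single mappers from STAR 2.7.8a on TAIR10 with Araport11, and deposited raw, strand-specific counts of distinct identifiers for each gene. Reads of near-identical copies are lost. Low counts carry large counting error, with 3 counts as the floor.

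The 10 genes and all lists were chosen with earlier results of these data known. Named are all 10, *UBP5*, pathway genes with an adjusted p under 0.05, regulators by their range, and the 10 genes most correlated with the tested early genes. Genes named beyond this (other late genes, *TTG1*, *HY5*, other single activators and repressors, and single organ markers) were chosen after their values were seen. Counts were tested with edgeR 4.0.16 in R 4.3.3 (quasi-likelihood, TMM, filterByExpr, Benjamini-Hochberg over 15649 genes, no covariates). DESeq2, the study's tool, was an alternative here, in version 1.42.0 (the study's version is not given in the sources used here). A pseudocount of 0.5 was added to both late and early sums, because Col-0 replicate 1 had 0 late counts, a step not in the original plan. Other alternatives were DESeq2 size factors, library totals alone, no filter, a mean of at least 10 counts, a replicate block, other call rules and each library left out. The procedure was tested on simulated counts. Promoters and positions come from RefSeq's TAIR10.1 annotation, where 37051 of 37336 identifiers and all listed genes were found, and figures from Python 3.11.15.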

Additional observations from a re-analysis of the deposited data

Results flagged for a closer look

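Within a genotype, 4 gene levels had 1 library far from the other 3, out of 34 sets of 4 libraries examined, and about 1 in 20 such sets would show this by chance where values are continuous. That rate does not apply to *UF3GT* and *TT8*, where a lone library with any count always stands apart, nor closely to *LDOX*, where the values are steps of 1 count. *CHS* had 53.5 CPM in Col-0 replicate 4, against 22.2 to 25.2 CPM in the other Col-0 libraries. *LDOX* had 0 CPM in Col-0 replicate 1, against 0.334 to 0.397 CPM in the others, which is the step from 0 to 1 count. *UF3GT* had 0.334 CPM in Col-0 replicate 4 and 0 in the other Col-0 libraries, again 1 count. *TT8* had 1.19 CPM in Col-0 replicate 2, from 3 counts, and 0 in the others. What set these libraries apart was not tested.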

How the results depend on the processing

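Depth limited the tests, since 8 of the 10 genes had too few counts for the expression filter. Over all genes, 299 were called higher and 459 lower, and leaving out 1 library moved the higher calls between 249 and 465, the most without Col-0 replicate 1. With no fold-change threshold 719 were higher and 992 lower, and at an adjusted p under 0.01 it was 184 and 279. Col-0 replicate 1 was the library least like the others of its genotype. Between pairs of Col-0 libraries, chi-square per degree of freedom over genes was 8.67 to 9.05 with that library and 4.07 to 5.69 without it. Of the 10 genes 0 were called lower, but 1, *FLS1*, was with no filter and with a mean of at least 10 counts, and leaving out 1 library gave 0 to 1, the 1 being without Col-0 replicate 3. Among the other pathway genes the higher call, AT4G14090, became 0 with a mean of at least 10 counts, which left it out, and the lower calls became 1 (*BGLU10*) with no fold-change threshold and 0 to 1 with libraries left out, the 1 being *BGLU10* at -1.06 without Col-0 replicate 2 (edgeR adjusted p = 0.00259). The log2 fold change of *F3H* ran from -0.48 to 0.06 with libraries left out, the 0.06 being without Col-0 replicate 4. The late over early difference stayed between 1.77 and 2.97 with libraries left out and was 2.23 with a pseudocount of 1, chosen after seeing the data. It was lowest, 1.47, with each gene weighted equally on the scale of CPM plus 0.5. No pairing by replicate number was seen, since same-numbered deviations correlated between -0.13 and 0.04 and differently numbered ones between -0.06 and 0.16. Whether same-numbered samples were grown or handled together cannot be told from these values. With a replicate block 269 genes were called higher and 396 lower, 0 of the 10 genes were called with the filter, and *FLS1* without it had an edgeR adjusted p = 0.0499. DESeq2 gave no adjusted p for *UF3GT*, *PAP1* and *TT8*.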
